A study of Mus musculus with 16 samples.

Results

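Mouse embryonic stem cells (ESCs) that had lost Dnmt1 were compared with wildtype (WT) ESCs by total RNA sequencing. The comparison used 12 of the 16 RNA libraries of the study, 4 from Dnmt1-/- cells (Dnmt1 KO) and 8 from wildtype cells, and covered the 12669 of 26127 listed genes that lay above 0 log2 RPM in 4 or more of these 12 libraries. RPM is the reads of a gene per M (mega) reads of the library, and 0 log2 RPM is 1 RPM. The other 4 libraries came from Dicer/Dnmt1 -/- cells and are used only for values set side by side. All 12 libraries carry the background name E14, a mouse ESC line, and the mark Dicer_CTR, the control state for Dicer, in both groups. The labels give no day of deletion and no clone. The study's methods describe ESCs in serum and LIF, grown with or without feeder cells, with a Dnmt1 gene flanked by loxP sites and removed by Cre after tamoxifen, beside lines edited with CRISPR. They give the strain of the loxP cells as C57BL/6, which differs from the E14 of the labels, and do not say which culture, clone or feeder condition each of these libraries had.

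DNMT1 is the maintenance DNA methyltransferase. It copies the methyl mark on CG dinucleotides from the parental to the daughter strand at replication, with UHRF1 guiding it to hemimethylated sites, while DNMT3A, DNMT3B and their cofactor DNMT3L lay down new marks. In mouse cells this mark is known for silencing germline genes, a parental copy of imprinted genes, genes on the inactive X chromosome and retrotransposons. ESCs tolerate its loss, unlike most somatic cells.

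The wildtype libraries were numbered 1 to 4 and the Dnmt1 KO libraries 1 and 2, each number with a letter A and a letter B. Libraries of the same number resembled each other more than libraries of different numbers: the SD of the log2 difference over the tested genes was 0.237 to 0.344 within WT numbers against 0.312 to 0.739 between them, and 0.233 to 0.249 against 0.319 to 0.348 in Dnmt1 KO. A and B were therefore averaged, which left 4 WT and 2 Dnmt1 KO values for each gene. Nothing in the labels says that the numbers are separate cultures, so the p-values below measure the spread between these values, which may be technical. Total depth was 31.5 to 52.5 M reads in WT and 32.9 to 41.6 M reads in Dnmt1 KO. In a principal component analysis the first component, with 59.8% of the variance, separated all 4 Dnmt1 KO libraries from all 8 WT libraries, and the second, with 21.2%, spread the WT libraries from -37.5 for 1A to 43.5 for 4B. Ribosomal protein genes took 10.7% and 11.3% of the gene reads in the WT 4 libraries, and 6.79% to 8.89% in the other WT libraries.

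Dnmt1 itself lay at 7.40 to 7.66 log2 RPM in the 6 libraries of WT 1 to 3, at 5.69 and 5.55 in WT 4A and 4B, and at 4.35, 4.17, 4.63 and 4.44 in Dnmt1 KO 1A, 1B, 2A and 2B. The groups did not overlap, but WT 4 stood closer to the Dnmt1 KO libraries than to the other WT libraries. The gene (ENSMUSG00000004099, NCBIM37 chr9:20711650-20757317, minus strand, 39 exons in its longest transcript) fell by 2.66 on the log2 scale (SE 0.50, adjusted p = 0.0109 by limma). The adjusted p was 3.56e-08 without WT 4, 0.0903 with Dnmt1 KO 2 alone and 0.118 with Dnmt1 KO 1 alone. Reads from exons outside a deletion are counted in this value, so the level left in Dnmt1 KO does not measure intact transcript. Because WT 4 differed in the targeted gene, counts without it are given where they moved most. ESC identity was checked on Pou5f1, Nanog and Sox2, the core pluripotency factors, whose lowest level in any of the 12 libraries was 8.08, 7.58 and 6.91 log2 RPM.

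Loss of Dnmt1 went with a wide but mostly moderate change of the transcriptome, and more genes went up than down. Of the 12669 tested genes, 1037 (8.19%) rose and 661 (5.22%) fell at an adjusted p under 0.05 (limma, Benjamini-Hochberg), together 13.4%. At a change of 2-fold or more, 522 (4.12%) rose and 232 (1.83%) fell. The median log2 change over all tested genes was 0.03. Every Dnmt1 KO library lay above every WT library for 1844 genes (14.6%) and below for 1086 (8.57%). Throughout, a gene is said to rise or fall only if it passed this test, and a log2 change is Dnmt1 KO minus WT. Counts of list members below stand beside 8.19% rising and 5.22% falling over all tested genes.

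The count rested on the WT libraries used: it was 2835 genes (1620 up, 1215 down) without WT 4, 677 (494 up, 183 down) without WT 3, 1131 (730 up, 401 down) without WT 2, and 506 and 170 when only Dnmt1 KO 2 or only Dnmt1 KO 1 was left. With the library medians set equal, 899 rose and 809 fell, and with quantile normalization 877 rose and 1028 fell, so the excess of rising genes depended on the scaling while the number called did not move by more than 1.5 times.

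**Figure D1:**
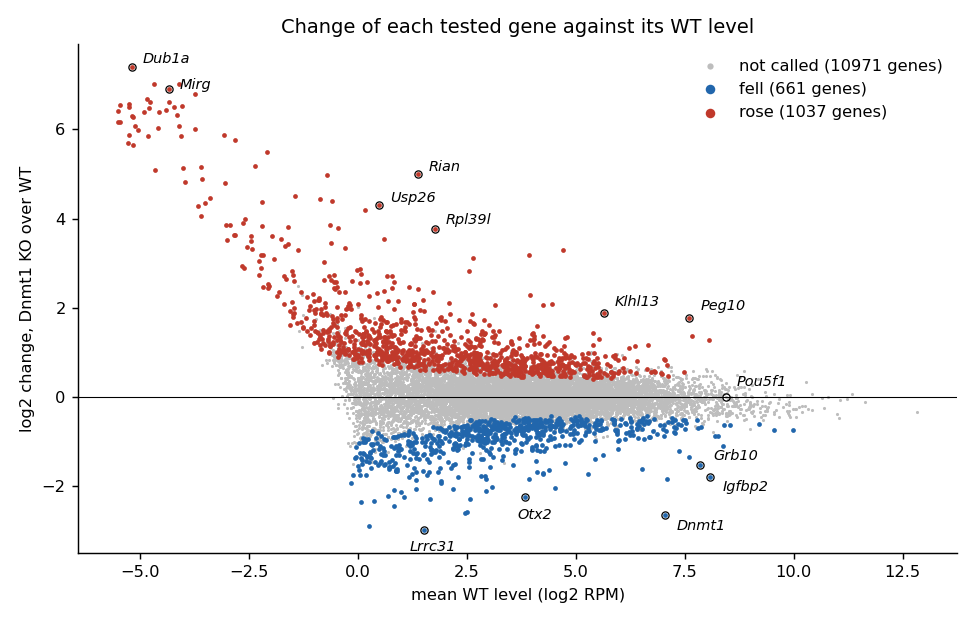
Mean WT level (log2 RPM, horizontal) and log2 change from WT to Dnmt1 KO (vertical) of the 12669 tested genes, with the 1037 that rose in red and the 661 that fell in blue. The largest increases sit at the left, among genes with almost no reads in WT, and the decreases stop near -3.

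The largest increases were found at the lowest WT levels. Among the 46 genes with a WT mean of -3 log2 RPM or less, all 46 rose, and 65 of 71 did so between -3 and -1. All of the first 46 and 62 of the 71 passed the filter only through the Dnmt1 KO libraries and so had to differ, which makes these counts a description of the filter as well. In all, 153 genes were above 0 log2 RPM in no WT library (146 rose) and 153 in no Dnmt1 KO library (78 fell). Among the 12363 genes above 0 in at least 1 library of each group, 891 rose and 583 fell. The share that fell was highest at 0 to 2 log2 RPM in WT, with 171 of 2445 genes (6.99%), against 5.22% of all tested genes. Of these 2445, 129 passed the filter only through WT, so this share also describes the filter. More genes fell than rose at high levels: of 1327 genes between 6 and 8, 64 fell (4.82%) and 22 rose (1.66%), and of 246 above 8, 9 fell and 1 rose.

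The highest increases belonged to genes of the 2-cell-like state, a rare and passing state of ESC cultures that resembles the 2-cell embryo. Zscan4c, Zscan4d and Zscan4f encode zinc finger proteins that are linked to telomere lengthening and mark this state, and the Usp17-like genes Dub1, Dub1a, Dub3 and Usp17l5 encode deubiquitinating enzymes. For Zscan4f, Zscan4d and Zscan4c the promoters are printed, because these 3 genes and the imprinted Mirg were the highest risers on autosomes for which the RefSeq promoter table (GRCm38.p6) held a sequence. Each runs 5′ to 3′ from 250 bases before to 50 after the start, with every CG dinucleotide, the site of DNMT1 action, in capitals. The windows are chr7:11397665-11397964 (plus strand), chr7:11166099-11166398 (minus strand), chr7:11005495-11005794 (plus strand) and chr12:109734731-109735030 (plus strand).
Zscan4f: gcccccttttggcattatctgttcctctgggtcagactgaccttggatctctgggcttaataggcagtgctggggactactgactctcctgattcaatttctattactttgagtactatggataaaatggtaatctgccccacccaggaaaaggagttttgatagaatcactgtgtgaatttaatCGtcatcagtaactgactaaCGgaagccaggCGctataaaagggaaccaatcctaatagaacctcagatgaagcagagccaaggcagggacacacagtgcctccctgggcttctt
Mirg: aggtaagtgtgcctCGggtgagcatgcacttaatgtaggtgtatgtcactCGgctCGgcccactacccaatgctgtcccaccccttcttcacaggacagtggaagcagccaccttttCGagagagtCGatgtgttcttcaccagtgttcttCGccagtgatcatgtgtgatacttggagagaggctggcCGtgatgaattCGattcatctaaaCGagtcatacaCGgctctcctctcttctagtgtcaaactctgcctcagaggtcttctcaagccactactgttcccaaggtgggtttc
Zscan4d: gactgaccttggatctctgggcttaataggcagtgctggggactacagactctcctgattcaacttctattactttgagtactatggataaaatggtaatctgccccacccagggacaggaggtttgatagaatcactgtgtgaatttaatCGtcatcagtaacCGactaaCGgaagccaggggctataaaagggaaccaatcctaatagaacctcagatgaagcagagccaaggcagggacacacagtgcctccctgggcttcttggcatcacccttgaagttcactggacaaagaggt
Zscan4c: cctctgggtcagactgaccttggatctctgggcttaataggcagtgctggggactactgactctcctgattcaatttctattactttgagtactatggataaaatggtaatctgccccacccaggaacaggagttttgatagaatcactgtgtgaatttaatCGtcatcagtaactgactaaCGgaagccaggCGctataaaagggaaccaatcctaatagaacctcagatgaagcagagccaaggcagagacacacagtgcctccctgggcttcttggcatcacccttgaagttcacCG
The Zscan4 windows hold 3, 3 and 4 CG dinucleotides and the Mirg window 10. The longest identical run shared by Zscan4f and Zscan4c is 127 bases, and by Zscan4f and Zscan4d 83 bases. Reads of low mapping quality were discarded by the authors, so reads that fit several of these near-identical copies were lost and the level of each copy is uncertain.

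Zscan4f had 1 to 7 reads in each WT library (median 3) and 211 to 322 in each Dnmt1 KO library. On the log2 scale these were -5.53 to -2.26 (median -3.90) in WT and 3.09, 2.95, 2.87 and 2.68 in Dnmt1 KO 1A, 1B, 2A and 2B. No library of either group came near the other group. Over the pooled reads the level was 103 times that of WT (24 against 1084 reads, exact 95% interval 69.0 to 162, counting error only), and the fitted change was 7.01 (SE 0.39, adjusted p = 5.44e-05).

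Zscan4d had 31 reads in the 8 WT libraries together and 1218 in the 4 Dnmt1 KO libraries, and Zscan4c 26 and 816. Among the Usp17-like genes, Dub1a had 8 and 673 reads, a ratio of 192 (96.9 to 447), Usp17l5 8 and 405, a ratio of 116 (58.1 to 270), and Dub3 42 and 998, a ratio of 54.3 (39.9 to 75.8). A gene without reads is entered at 0.9 read in the deposited table, so fitted changes of genes with so few WT reads depend on that entry, while the ratios of pooled reads do not. Of the 17 listed 2-cell-like genes that the table holds, 11 were tested and 11 rose, with a median change of 6.51 against 0.03 for all genes. Of these, 10 passed the filter only through Dnmt1 KO, and the other 6, Dux among them, stayed below it, at 0.85 log2 RPM at most. Zfp352 lay at -2.07 to -0.51 log2 RPM in WT (median -1.56) and at 1.09, 1.19, 1.39 and 0.81 in Dnmt1 KO, and Arg2 at -3.83 to -1.81 (median -2.23) and 1.21, 0.53, 0.81 and 0.71. The summed level of the 11 genes was 2.01 to 2.78 RPM in WT and 39.5 to 46.6 RPM in Dnmt1 KO, and 39.5 to 52.9 RPM in Dicer/Dnmt1 KO. In bulk RNA, more cells in such a state and more RNA in each cell cannot be told apart.

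**Figure D2:**
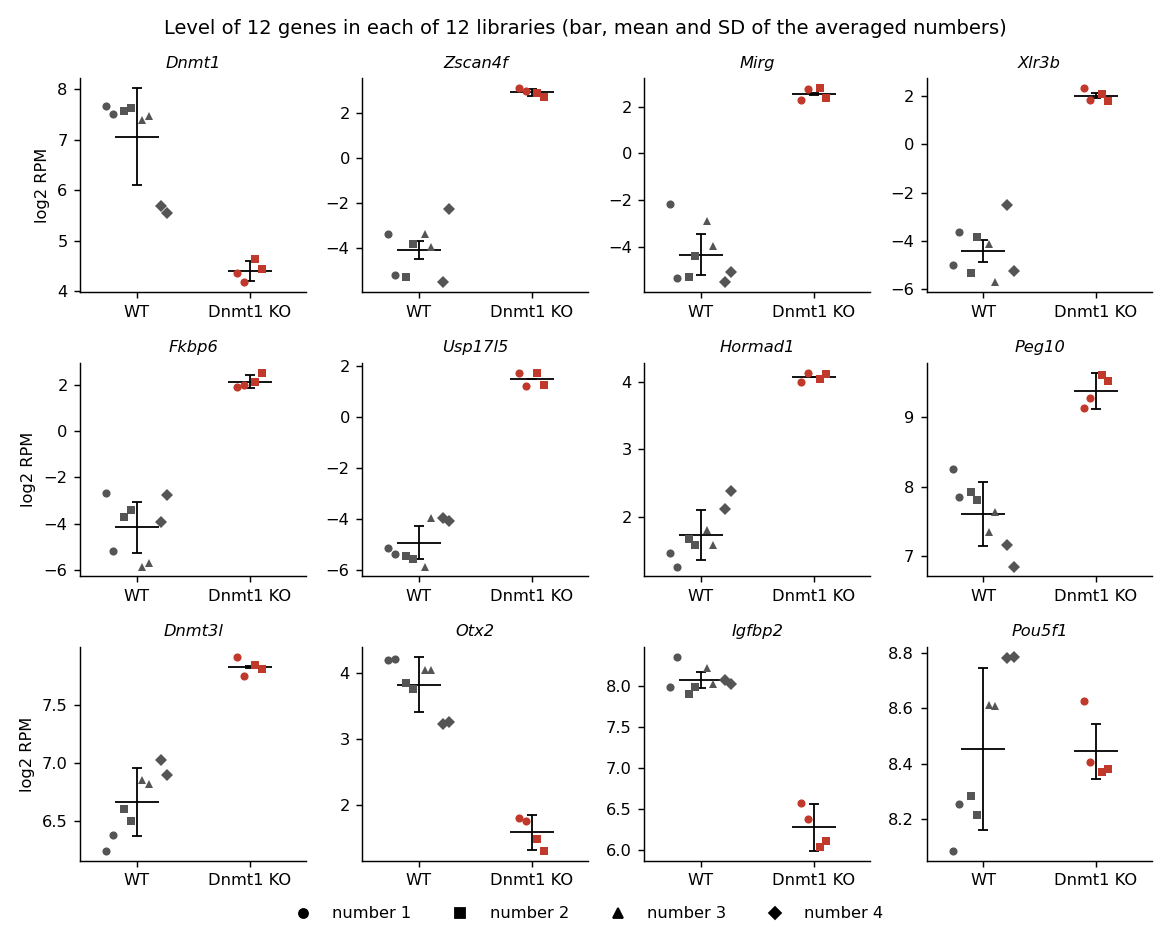
Level (log2 RPM) of 12 named genes in the 8 WT and 4 Dnmt1 KO libraries, 1 symbol for each number, with the mean and SD of the averaged numbers as bars (n = 4 and n = 2). Zscan4f, Mirg, Xlr3b, Fkbp6 and Usp17l5 lie below -2 log2 RPM in all WT libraries and above 1 in all Dnmt1 KO libraries, Dnmt1 in WT 4 lies between the groups, and Pou5f1 overlaps.

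The X chromosome held the largest share of rising genes among the autosomes and X. Of its 446 tested genes, 62 rose (13.9%) and 43 rose 2-fold or more (9.64%), and the shares of rising genes on the autosomes ran from 5.93% on chromosome 8 to 10.5% on chromosome 2. The fall was not larger there (18 genes, 4.04%), and the median change of X genes was 0.03, inside the range of -0.02 to 0.08 over the autosomes. The mitochondrial genome had none of its 13 genes called. Of the 446 X genes, 14 passed the filter only through Dnmt1 KO, beside 153 of all 12669 tested genes, so the X share also describes the filter. No test was run of 1 chromosome against the others.

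**Figure D3:**
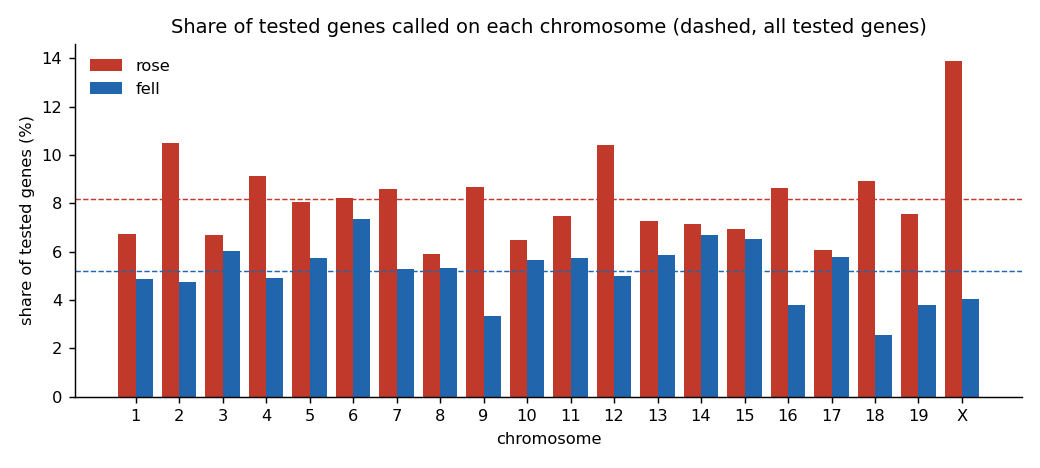
Share of tested genes (%) that rose (red) or fell (blue) on each autosome and on X, with the shares over all tested genes, 8.19% and 5.22%, as dashed lines. X reaches 13.9% for rising genes, chromosomes 2 and 12 reach 10.5% and 10.4%, and the other chromosomes lie at or below 9.15%.

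Members of X-linked gene clusters expressed in germ cells were 9 of these 62 rising genes. Of 54 listed members of these clusters, 13 were tested, 9 rose, none fell and the median change was 4.30, and 5 of the 13 passed the filter only through Dnmt1 KO. The 41 members below the filter reached 0.35 log2 RPM at most in any of the 12 libraries. Xlr3b, a member of the lymphocyte-regulated cluster that is imprinted in brain, lay at -5.71 to -2.53 log2 RPM in WT (median -4.55) and at 2.33, 1.84, 2.10 and 1.78 in Dnmt1 KO. It had 19 reads in WT and 586 in Dnmt1 KO, a ratio of 70.4 (44.7 to 118), and its copies Xlr3a and Xlr3c moved the same way (48.0 and 31.3 times). These copies are near-identical and their levels uncertain.

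Usp26, a deubiquitinating enzyme of the testis, was another rising member of these clusters. It went from -0.60 to 1.25 log2 RPM in WT (median 0.47) to 4.94, 4.88, 4.57 and 4.74, a change of 4.30 (SE 0.32, adjusted p = 0.000217). Rhox6 and Rhox9, reproductive homeobox genes, changed by 2.72 and 2.84, Pnma5 by 4.45 and the mRNA export factor gene Nxf3 from 14 to 487 reads, a ratio of 79.4 (46.9 to 146). The members that did not pass the test, Zxdb, Mageb16, Nr0b1 and Dusp9, had log2 changes of 0.30 to 0.48. Fmr1nb, which lies outside the list on the same chromosome, was spread widely in WT, from 1 to 50 reads, and had 306 to 482 reads in Dnmt1 KO. Left without any 1 WT number, the list had 9 or 10 rising members, and with 1 Dnmt1 KO number 8 or 9.

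Genes marked by genomic imprinting, where only the copy from 1 parent is active, showed increases in both classes. Of 21 tested genes of the maternally expressed list 7 (33.3%) rose and 2 (9.52%) fell (median 0.33). That list, as written, includes Nespas and Zfp264, which are expressed from the paternal copy, so its counts may include genes of the other class. Of 21 tested paternally expressed genes 10 (47.6%) rose and none fell (median 0.53). In both lists 2 genes passed the filter only through Dnmt1 KO. Leaving out 1 WT number at a time gave 6 to 8 rising maternally expressed and 7 to 12 paternally expressed genes. With Dnmt1 KO 2 alone the counts were 4 and 6 and with Dnmt1 KO 1 alone 3 and 1. Without WT 2 or WT 3 only 1 maternally expressed gene fell.

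The maternally expressed noncoding RNAs Meg3, Rian and Mirg lie next to each other on chromosome 12 (NCBIM37 chr12:110779211-110987665 from the start of Meg3 to the end of Mirg, all plus strand), in a domain whose unmethylated maternal control region keeps them active. Rian lay at 0.86 to 1.67 log2 RPM in WT (median 1.41) and at 6.45, 6.39, 6.33 and 6.31 in Dnmt1 KO, a change of 4.99 (SE 0.18, adjusted p = 6.63e-06). Meg3 changed by 4.99 as well (SE 0.30) and Mirg went from 22 to 875 reads, a ratio of 90.8 (59.6 to 146). The WT libraries did not overlap with Dnmt1 KO for any of them, and Dlk1, the paternally expressed growth regulator of the same domain, also rose, from -3.09 to -0.59 in WT to 0.55 to 1.45 (change 2.70, SE 0.41). H19, a maternally expressed RNA on chromosome 7, varied most in WT, from 3.11 to 6.0 log2 RPM, and lay at 8.09, 8.03, 7.90 and 7.97 in Dnmt1 KO (change 3.29, SE 0.66), while its paternally expressed neighbour Igf2 had a change of 0.32 (SE 0.31, adjusted p = 0.53).

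Among paternally expressed genes, Peg10, a retrotransposon-derived gene needed in the placenta, reached the highest level. It lay at 6.85 to 8.26 log2 RPM in WT (median 7.72) and at 9.13, 9.28, 9.61 and 9.52 in Dnmt1 KO, a change of 1.78 (SE 0.27, adjusted p = 0.00459). Peg3, a zinc finger gene, changed by 1.36, Plagl1, a growth regulator, by 2.11, Impact by 1.44 (SE 0.14), Sfmbt2 by 1.33 and Mest by 1.05. Among maternally expressed genes, Grb10, a growth factor receptor adaptor, went the other way. It lay at 7.66 to 8.07 in WT and at 6.32, 6.50, 6.26 and 6.26 in Dnmt1 KO, and fell by 1.53 on the log2 scale (SE 0.15, adjusted p = 0.00053). Of the same maternally expressed list, Copg2 fell by 0.75, and the cell cycle inhibitor Cdkn1c rose by 1.49.

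Germline genes outside these X-linked clusters moved in both directions. Genes of germline genome defence protect germ cells from retrotransposons through piRNAs and related means. Of 17 tested, 6 (35.3%) rose and 3 (17.6%) fell (median 0.51). Of 25 meiosis genes 10 (40%) rose and 2 (8%) fell (median 0.18). Of 19 other testis and oocyte genes 7 (36.8%) rose and 1 (5.26%) fell (median 0.35). The lists hold 6, 7 and 22 more genes that stayed below the filter, and 1, 1 and 3 of the tested ones passed it only through Dnmt1 KO, and 3, 1 and 0 only through WT. Without WT 3 the meiosis count was 5 up, and no genome defence gene fell. With only 1 Dnmt1 KO number left, 1 genome defence gene rose, and 4 or 2 meiosis genes and 5 or 4 of the other list. Without WT 4, 8 genome defence genes rose.

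Fkbp6, an immunophilin of the piRNA pathway, had 0 to 5 reads in each WT library and 126 to 192 in each Dnmt1 KO library, a ratio of 70.4 (45.6 to 114) over 21 and 647 reads. Gpat2, which acts in piRNA production, changed by 2.58 (SE 0.40) and Dazl, an RNA-binding protein of germ cells, from 1.09 to 2.83 log2 RPM in WT (median 2.06) to 3.67, 3.83, 3.56 and 3.71 (change 1.69, SE 0.32, adjusted p = 0.0119). The PIWI genes Piwil4 and Piwil2 rose by 1.61 and 0.75, and Tex19.1, known to restrain retrotransposons, by 1.36. In contrast the Tudor-domain genes Tdrd1 and Tdrd5 fell by 1.49 and 0.79, Exd1 fell by 0.80 (adjusted p = 0.179 with an estimated correlation), and the germ cell helicase gene Ddx4 had a change of 0.07 (SE 0.17). Tdrd1 and Exd1 passed the filter only through WT.

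Among the meiosis genes, the chromosome axis gene Hormad1 lay at 4.00, 4.14, 4.04 and 4.12 log2 RPM, against 1.25 to 2.37 in WT (median 1.62, change 2.35, SE 0.23, adjusted p = 0.000592). Its relative Hormad2 changed by 3.43 and the synaptonemal complex gene Sycp1 by 2.72, with 3.33, 3.33, 3.46 and 3.43 in Dnmt1 KO and -0.28 to 1.69 in WT. Stra8, which triggers meiotic entry, changed by 2.26 (SE 0.57, adjusted p = 0.0337), and the cohesin gene Smc1b by 1.22. Sycp3, another synaptonemal complex gene, fell instead: 2.46 to 3.22 in WT (median 2.88) and 1.5, 1.43, 0.62 and 0.93 in Dnmt1 KO (change -1.79, SE 0.23, adjusted p = 0.00206). Of the testis and oocyte genes, the X-linked Taf7l changed by 2.46, Slc25a31 by 2.45 (adjusted p = 0.105 with an estimated correlation), Zp3 by 2.22 and Stk31 by 2.15. The ribosomal protein genes of the testis Rpl10l and Rpl39l, the latter from 0.34 to 3.01 log2 RPM in WT to 5.88, 5.56, 5.26 and 5.38 (change 3.76, SE 0.49), were the only 2 of 83 tested ribosomal protein genes that rose, and none fell. The other 81 centred below 0: the median of the 83 was -0.27, and -0.12 without WT 4, the libraries with the highest ribosomal protein share.

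Most enzymes that write and remove DNA methylation were not called beside Dnmt1. Of 23 tested genes of this machinery 2 rose (8.70%, beside 8.19% of all tested genes) and 1, Dnmt1, fell (median 0.10). The rising count was 4 without WT 4, 5 with all 12 libraries and an estimated correlation within numbers, and 0 with either Dnmt1 KO number alone. Dnmt3l rose from 6.24 to 7.03 log2 RPM in WT (median 6.71) to 7.91, 7.75, 7.84 and 7.80 in Dnmt1 KO, a change of 1.16 (SE 0.19, adjusted p = 0.00561). Dnmt3a changed by 0.55 with an adjusted p of 0.049996, just inside the threshold, and lost its call when WT 1, WT 2 or WT 3 was left out. Dnmt3b changed by 0.67 (SE 0.20, adjusted p = 0.0577), Uhrf1 by 0.41 (adjusted p = 0.0879) and Tet1, which oxidises the methyl mark, by 0.26 (SE 0.27, adjusted p = 0.556), none past the threshold although every Dnmt1 KO library lay above every WT library for the first 2. In the replicate block fit the sign of Tet1 turned.

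Of 29 tested silencers of H3K9 methylation and retroelements 3 rose (10.3%, beside 8.19% of all tested genes) and none fell (median 0.04, and -0.04 without WT 4). These were Daxx, a histone chaperone, by 0.63, Ehmt2, an H3K9 methyltransferase, by 0.53, and Zfp809, a KRAB zinc finger protein that binds proviral DNA, by 0.50. Trim28, the corepressor of such zinc finger proteins, changed by 0.45 (SE 0.15, adjusted p = 0.0754) and Setdb1, the methyltransferase it recruits, by -0.08 (SE 0.14). Daxx alone kept its call without WT 2 and without WT 3, and none of the 3 did with 1 Dnmt1 KO number.

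Most core pluripotency genes were not called. Pou5f1 lay at 8.08 to 8.79 log2 RPM in WT and at 8.63, 8.41, 8.37 and 8.38 in Dnmt1 KO, a change of -0.01 (SE 0.20, adjusted p = 0.985) whose sign turned under several settings. Zfp42 changed by 0.14 (SE 0.18) and Esrrb by -0.20 (SE 0.17), also without a call. Of 28 tested core and naive pluripotency genes 2 (7.14%) rose and 4 (14.3%) fell (median -0.18). Gbx2 rose by 1.47 (SE 0.18), and Dppa2, known to act on the Zscan4 genes and their relatives, by 1.05 (SE 0.13). Sox2 fell by 0.67 (SE 0.18, adjusted p = 0.041), Nanog by 0.64 (SE 0.18, adjusted p = 0.045), Fgf4 by 0.64 and Tcl1 by 0.92. All 4 falling calls were lost without WT 2 or without WT 3 and with either Dnmt1 KO number alone, and 7 genes fell without WT 4.

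Genes of the formative and primed state, which ESCs enter as they leave naive pluripotency moved in both directions. Of 20 tested genes 8 (40%) rose and 2 (10%) fell (median 0.47). Otx2, the transcription factor that drives this transition, fell by 2.25 on the log2 scale (SE 0.26, adjusted p = 0.0013), from 3.23 to 4.22 log2 RPM in WT (median 3.95) to 1.79, 1.75, 1.49 and 1.30 in Dnmt1 KO, and the WT 4 libraries were the lowest of the WT group. Zic5 fell by 1.07. Car2, a carbonic anhydrase, rose by 2.05 (SE 0.33), the Wnt effector Lef1 by 1.67 and Etv1 by 0.95, while Fgf5 had a change of -0.15 (SE 0.43). Without WT 3 the count was 3 up and 1 down, without WT 2 5 up and without WT 4 3 down, and with 1 Dnmt1 KO number 1 or 0 up and 1 down.

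Of the early germ-layer genes 8 were tested, 1 (12.5%, Msx2, change 1.57) rose and none fell, and 16 stayed below the filter. Msx2 passed the filter only through Dnmt1 KO. The call of Msx2 was lost with an estimated correlation (adjusted p = 0.0596), in the letter A libraries and with either Dnmt1 KO number alone. Of 13 tested trophoblast genes 2 (15.4%) rose and none fell (median 0.18). Hand1, a transcription factor of trophoblast giant cells, went from -3.39 to -1.47 log2 RPM in WT (median -2.10) to 0.63, 0.91, 1.18 and 1.11 (change 3.19, SE 0.30, adjusted p = 0.00053), and Lgals3 changed by 1.36. Cdx2, which specifies trophectoderm, changed by 1.23 (SE 0.36, adjusted p = 0.0546). Hand1 passed the filter only through Dnmt1 KO, and Elf5, Gata3 and 10 further trophoblast genes lay below it.

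Markers of primitive endoderm, the extraembryonic lineage that ESC cultures also give rise to, were higher in Dnmt1 KO. Of 19 tested markers 10 (52.6%) rose and none fell (median 1.30). The summed level of the 19 was 1025 to 1187 RPM in WT and 1332 to 1474 RPM in Dnmt1 KO. The defining transcription factor Gata6 lay at -0.20 to 1.67 log2 RPM in WT (median 0.73) and at 2.52, 2.55, 3.04 and 3.18 in Dnmt1 KO (change 2.14, SE 0.36, adjusted p = 0.0068). Cubn, an endocytic receptor of visceral endoderm, changed by 2.29 (SE 0.53), Sox7 by 1.98, the receptor gene Pdgfra by 1.78, Dab2 by 1.47 and the basement membrane collagen gene Col4a1 by 1.30. Gata4 (0.98, adjusted p = 0.0525) and Sox17 (1.86, SE 0.61, adjusted p = 0.0769) did not pass, and Afp, Ttr and Hnf4a lay below the filter. Without WT 4, 15 markers rose. With Dnmt1 KO 2 alone 4 rose and with Dnmt1 KO 1 alone 0.

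Markers of feeder fibroblasts moved as well. Of 20 tested markers 8 (40%) rose and none fell (median 0.78). Their summed level was 395 to 905 RPM in WT and 676 to 791 RPM in Dnmt1 KO, so the ranges overlapped. Col5a2 changed by 1.32, Lox by 1.30, Acta2 by 1.29 and Col1a1 by 1.40, the last with overlapping libraries (1.64 to 3.90 log2 RPM in WT and 3.74 to 4.57 in Dnmt1 KO). Thy1 had a change of 0.27 (SE 0.25), and Fap, Lum, Mgp and Twist2 were below the filter in both groups. The count was 13 without WT 4, and 1 or 0 with 1 Dnmt1 KO number. Several collagens and Sparc are also made by primitive endoderm. What part fibroblasts in the culture had in any of these values was not tested.

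Y-linked genes divided the groups completely. All 5 tested genes of the list rose, and reads on the Y chromosome were 0.00055% to 0.00295% of gene reads in WT, 0.0167% to 0.0179% in Dnmt1 KO and 0.0144% to 0.0199% in Dicer/Dnmt1 KO. Eif2s3y, a ubiquitous translation factor gene, lay at -5.32 to -1.16 log2 RPM in WT and at 3.08, 2.91, 3.00 and 2.72 in Dnmt1 KO, and Ddx3y at -5.56 to -0.48 and 2.96, 3.01, 2.66 and 2.68. Usp9y had no reads in any WT library and 278 in Dnmt1 KO, a level at least 212-fold higher with 3 reads over the 8 pooled WT libraries as the limit, and 171-fold higher at the lower end of the exact 95% interval. All 5 passed the filter only through Dnmt1 KO. A difference in Y content between the cultures and the loss of Dnmt1 cannot be told apart for these genes, and the same division of the libraries underlies every other result here. Xist, the RNA that coats the inactive X chromosome, rose by 2.45 (SE 0.28, adjusted p = 0.00115), from 0.22 to 1.27 log2 RPM in WT to 2.71, 3.07, 3.75 and 3.42, while its antisense partner Tsix had a change of 0.26 and Rlim, an activator of Xist, of 0.05. Xist and Tsix overlap, and how strand was used in counting is not given in the sources used here.

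Innate immune genes showed no shared increase. Of 17 tested genes of interferon signalling and double-stranded RNA sensing 2 (11.8%) rose and 3 (17.6%) fell (median -0.03). Another 17, among them Ifit1, Isg15, Irf7, Rsad2 and Ifih1, lay below the filter at 0.19 log2 RPM at most. Tmem173, the adaptor STING, rose by 1.65 (SE 0.39) and Trim30a by 0.94, and Oasl2 fell by 1.75 (SE 0.36), Cxcl10 by 1.36 and Ifitm1 by 0.81. None of these 5 kept its call without WT 3, and with an estimated correlation the adjusted p was 0.12 for Tmem173 and 0.0704 for Cxcl10. Cxcl10 passed the filter only through WT. Among the genes that fell most were Gbp2, an interferon-inducible GTPase, and Psmb8, an immunoproteasome subunit. Gbp2 lay at 3.93 to 5.30 log2 RPM in WT (median 4.43) and at 2.77, 2.90, 1.97 and 2.27 in Dnmt1 KO (change -2.05, SE 0.29, adjusted p = 0.00356), and Psmb8 had a change of -1.89 (SE 0.23). Genes of the same families were looked up after these values were seen: of 5 tested guanylate-binding protein genes 4 fell (Gbp3, Gbp4, Gbp7 and Gbp2), of 6 interferon regulatory factors Irf8 (-2.10) and Irf1 (-0.79) fell, of 17 histocompatibility-2 genes 3 fell and 1 rose, and of 3 immunoproteasome subunits only Psmb8 fell (Psmb9 -0.13 and Psmb10 0.23, no call). These counts include Gbp2 and Psmb8, which led to the look-up. Gbp4 and Irf8 had Dnmt1 KO means of -0.92 and -1.26 log2 RPM, below the filter level of 0, as were those of the falling H2-Ab1 and H2-Q2.

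Of 25 tested genes of a p53 list, mostly p53 targets, 4 (16%) rose and 1 (4%) fell (median 0.17). Cdkn1a, which encodes the cell cycle inhibitor p21, lay at 4.01 to 4.31 log2 RPM in WT and at 4.90, 4.92, 4.85 and 4.76 in Dnmt1 KO (change 0.72, SE 0.12, adjusted p = 0.00776), and Perp changed by 0.75. Cdkn2a, the Ink4a/Arf gene, which acts upstream of p53 and is not a p53 target, changed by 1.41 (SE 0.28) and is among the 4 risers. Ddb2, a damage recognition gene, fell by 1.00. Without WT 3 the count was 2 up, without WT 4 it was 6 up, and with 1 Dnmt1 KO number 0. Of 21 tested targets of ERK and Nodal signalling, a list that also holds the BMP targets Id1, Id2 and Id3, 5 (23.8%) rose and 1 (4.76%) fell (median 0.38). Myc rose by 1.91 (SE 0.21, adjusted p = 0.000991), from 1.24 to 2.08 log2 RPM in WT (median 1.38) to 3.15, 3.32, 3.83 and 3.45, Id1 by 1.28 and Phlda1 by 1.05, and Spry1 fell by 0.91. The Nodal feedback inhibitors Lefty1 and Lefty2 had changes of 0.14 (SE 0.16) and 0.39 (SE 0.16). This count was 1 without WT 3, 3 without WT 2 and 8 without WT 4.

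Several metabolic lists leaned downwards. Of 25 tested glycolysis and hypoxia genes 9 (36%) fell and none rose (median -0.47). Aldoc fell by 1.85 (SE 0.19, adjusted p = 0.000671), Bnip3, a mitophagy receptor, by 1.16 and Vegfa by 1.09. The abundant glucose transporter Slc2a3 lay at 9.74 to 10.12 log2 RPM in WT (median 10.01) and at 9.31, 9.32, 9.10 and 9.21 in Dnmt1 KO, Aldoa fell by 0.74, Tpi1 by 0.88 and the phosphofructokinase gene Pfkl by 0.71, while Ldha (-0.20), Hk2 (0.15) and Ndrg1 (0.21) had no call. The count was 14 without WT 4 and 4 without WT 3, and 4 and 1 with Dnmt1 KO 2 or Dnmt1 KO 1 alone.

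Of 23 tested cholesterol synthesis genes 7 (30.4%) fell and none rose (median -0.39). Insig1, a sterol sensor partner, fell by 0.86 (SE 0.15), Sc4mol by 0.80, Lss by 0.71 and Mvd by 0.66. The count was 1 without WT 3, 5 without WT 2, and 1 or 0 with 1 Dnmt1 KO number. Of 19 tested ATF4 stress targets 3 (15.8%) fell and none rose, led by Asns (-1.34, SE 0.18), the asparagine synthetase gene, with Nupr1 (-1.02) and Vldlr (-0.73). The calls of Nupr1 and Vldlr were lost without WT 3, and that of Vldlr with an estimated correlation (adjusted p = 0.175). Without WT 4, 3 of these targets rose and 4 fell.

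Replication-dependent histone genes also leaned downwards. Of 62 tested genes 16 (25.8%) fell and 1 (1.61%) rose (median -0.60). Hist1h3e lay at 8.01 to 8.52 log2 RPM in WT and at 7.07 to 7.68 in Dnmt1 KO (change -0.89, SE 0.19), Hist4h4 fell by 0.98 and Hist1h2br by 0.94. The riser was Hist1h2aa, a testis histone gene (change 1.30, SE 0.34). No histone gene fell without WT 3, 10 fell without WT 2 and 26 without WT 4, and 10 and 0 fell with Dnmt1 KO 2 or Dnmt1 KO 1 alone. These transcripts lack poly(A) tails and are covered here because the libraries were made from total RNA. The clustered protocadherins had 1 tested gene of 24, which was not called.

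**Figure D4:**
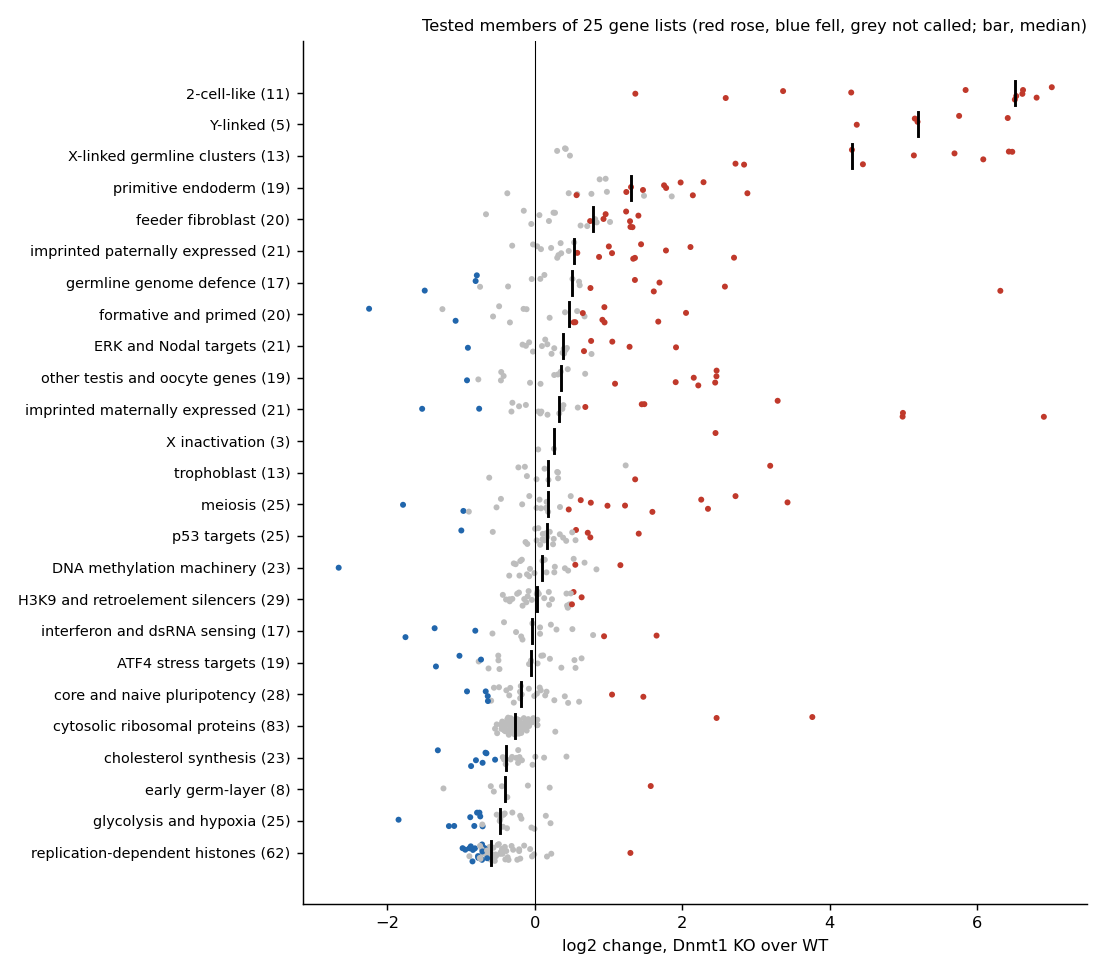
Log2 change from WT to Dnmt1 KO of each tested member of 25 gene lists, with members that rose in red, members that fell in blue, the others in grey and the list median as a bar (number tested in brackets). The 2-cell-like, Y-linked and X-linked germline lists have medians of 6.51, 5.19 and 4.30 (1.74, 2.14 and 2.00 with a pseudocount of 1 RPM), and histone, glycolysis and cholesterol genes lie mostly left of 0.

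Among abundant genes, with a mean of 6 log2 RPM or more over the 12 libraries, the largest increases were those of Klhl13, Peg10, Peg3, Ccrn4l, Dnmt3l and Ass1. Klhl13, an X-linked adaptor of a CUL3 ubiquitin ligase, lay at 5.06 to 6.13 log2 RPM in WT (median 5.61) and at 7.48, 7.5, 7.56 and 7.56 in Dnmt1 KO, a change of 1.89 (SE 0.23, adjusted p = 0.00182). Ccrn4l, also called nocturnin, was at 7.87 to 8.24 in WT and 9.26, 9.36, 9.34 and 9.31 in Dnmt1 KO (change 1.27, SE 0.15), and Ass1, the argininosuccinate synthetase gene, changed by 1.14 (SE 0.13).

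The largest decreases of abundant genes beside Dnmt1, Grb10 and Asns were those of Trh, Igfbp2 and Fabp3. Igfbp2, an insulin-like growth factor binding protein, lay at 7.90 to 8.35 log2 RPM in WT (median 8.02) and at 6.58, 6.39, 6.04 and 6.11 in Dnmt1 KO (change -1.79, SE 0.15, adjusted p = 0.000333). Trh, the thyrotropin-releasing hormone gene, was at 6.37 to 7.53 in WT and at 5.65, 5.53, 4.93 and 4.95 in Dnmt1 KO (change -1.83, SE 0.28), and the fatty acid binding protein gene Fabp3 fell by 1.20.

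Among less abundant genes, Lrrc31 fell most, from 1.11 to 1.93 log2 RPM in WT (median 1.41) to -1.87, -0.25, -1.89 and -1.87 in Dnmt1 KO (change -2.98, SE 0.30, adjusted p = 0.000697). Lrrc31 passed the filter only through WT, and with a pseudocount of 1 RPM its change was -1.47. Enpp2, the enzyme that makes lysophosphatidic acid, fell by 2.61, Pdzk1, a scaffold protein gene, by 2.58 (SE 0.22), the zinc transporter gene Slc39a8 by 2.30, Crym by 2.02, Sept4 by 1.94 and the channel gene Mcoln3 by 2.06. Ly6g6e had a change of -2.11 and Pion of -2.07. Padi3, a peptidylarginine deiminase, fell by 2.28, and the 2 other tested members of its cluster on chromosome 4, Padi2 and Padi4, looked up after its value was seen, fell by 1.58 and 1.51. Of the 7 glutathione S-transferase mu genes on chromosome 3, looked up in the same way, 4 fell (Gstm3 by 2.44, Gstm6 by 1.59, Gstm7 by 1.59 and Gstm2 by 0.90) and the other 3 had changes of -0.80 to -0.31. Padi3, Padi4, Gstm3 and Gstm7 had Dnmt1 KO means of -0.62, -0.90, -1.62 and -1.29 log2 RPM, below the filter level of 0. Neighbours in these clusters are similar in sequence, so their reads may not be fully separable.

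Values in Dicer/Dnmt1 KO libraries, which share the WT libraries as their reference, lay close to Dnmt1 KO for some of these genes and apart for others, with no test made. Zscan4f ran from 2.81 to 3.34 log2 RPM there, Rian from 6.05 to 6.39, Klhl13 from 7.31 to 7.51 and Igfbp2 from 6.03 to 6.31. Lrrc31, the gene that fell most in Dnmt1 KO, lay at 1.69 to 1.98, with 2 of the 4 libraries within and 2 just above its WT range, and Dnmt3l at 6.40 to 6.58, within its WT range. Otx2 was lower, at -0.08 to 0.35, as was Sycp3, at -0.57 to 0.55, and Cdkn1a was higher, at 5.77 to 6.14.

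Promoters of genes that rose 2-fold or more held fewer CG dinucleotides than those of uncalled genes. Of these 522 rising genes, 144 passed the filter only through Dnmt1 KO. Windows from 250 bases before to 50 after each gene's annotated start were read from NCBIM37 for 12646 tested genes on autosomes and X. The median number of CG dinucleotides was 10 (quartiles 4.5 and 19.5) in the 515 that rose 2-fold or more, 14 in the 232 that fell 2-fold or more and 20 in the 10956 that were not called. Below 5 CG lay 25.05% of the first, 17.2% of the second and 7.62% of the third. The order among 2-fold risers and uncalled genes held on both sides of a WT mean of 1 log2 RPM: 9 against 14 at or below it and 13 against 21 above it. The 155 genes that fell 2-fold from above that level had a median of 13. Genes that rose by less than 2-fold had a median of 18, and those that fell by less 19. The annotated start need not be the one used in these cells, and no test was run.

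**Figure D5:**
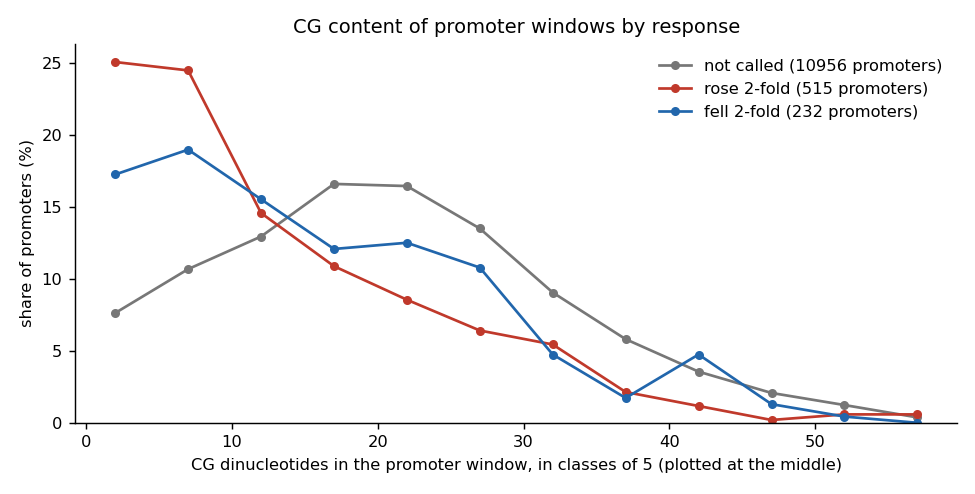
Share (%) of promoter windows of 300 bases in each class of 5 CG dinucleotides, for genes that rose 2-fold or more (red, 515), fell 2-fold or more (blue, 232) or were not called (grey, 10956). The red line peaks below 10 CG and the grey line between 15 and 24.

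Short motifs that hold a CG were counted in the same windows on either strand. CCGGAAGT, bound by ETS factors, was in 7.58% of all tested windows, in 1.55% of those of genes that rose 2-fold and in 0.43% of those that fell 2-fold. CGCATGCG, bound by NRF1, was in 3.62%, 1.75% and 1.29%, and GGCGGGAA, an E2F motif, in 4.26%, 2.91% and 4.31%. TGACGTCA, the cAMP response element, was in 3.31%, 2.14% and 2.16%, and CTCGCGAG in 1.87%, 1.55% and 1.29%. CACGTG, the E-box of Myc-type factors, was in 10.01%, 10.3% and 12.1%. These shares are not matched for level, and 340 of the 515 risers had a WT mean of 1 log2 RPM or less. At that level CCGGAAGT was in 1.18% of windows of 2-fold risers and 3.42% of uncalled windows. In the same order CGCATGCG was in 1.47% and 1.62%, TGACGTCA in 1.76% and 2.05% and GGCGGGAA in 2.35% and 3.33%. CTCGCGAG, in 1.47% and 0.43%, and CACGTG, in 9.71% and 6.50%, were more frequent in the risers. None of the 4 promoters printed above holds CACGTG. A match is a description of the letters, not of binding.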

How the data were processed

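Total RNA libraries were made by the authors with ribosomal RNA removed, trimmed with Trim Galore 0.3.5, aligned to NCBIM37 with TopHat2 2.0.11, freed of reads of low mapping quality and quantified in SeqMonk. The deposited values are log2 RPM for each gene and library, as the authors made them. Scaled back, at least 99.994% of the values in each library were whole reads within 0.1 read, and a gene without reads stands at 0.9 read. Another 35 value columns belong to other samples and were not used. Gene coordinates matched an NCBIM37 annotation for 26114 of 26127 genes.

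A and B of each number were averaged and Dnmt1 KO was compared with WT in limma 3.58.1 (R 4.3.3) with a mean-variance trend, as 2 against 4 values, with Benjamini-Hochberg adjustment over the 12669 genes. The within-number correlation was 0.68. The steps were tested on simulated data. A value of 3 reads corresponded to 0.0571 to 0.0951 RPM, and intervals cover counting error only.

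Named genes were the 14 that rose and the 14 that fell most among genes with separate groups, at least 1 log2 RPM in the higher group, an autosomal or X-linked position, an official-style symbol and at most 3 of a symbol stem. To these were added 6 and 6 at 6 log2 RPM or more, up to 3 called members a direction of each list, and fixed markers. Other list members are named as examples. Members and lists were chosen with earlier results of these data known. The RefSeq promoter table held under 80% of the genes, so that check was void, and windows were read from NCBIM37 instead. The 4 printed promoters are from the RefSeq table. Alternatives were other replicate handling, blocks, scalings, filters, a pseudocount, voom on recovered reads and left-out numbers. Some members of the gene lists are not reported here by name.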

Additional observations from a re-analysis of the deposited data

Results flagged for a closer look

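For 7 of the 118 named genes, 1 of the 4 averaged WT values stood apart from the other 3 by Dixon's criterion. Chance gives about 1 in 20 groups. Dnmt1 lay at 5.62 log2 RPM in WT 4 and at 7.43 to 7.60 in the others. WT 4 also stood apart for Lef1 (0.40 against 1.25 to 1.39), Nupr1 (3.58 against 2.92 to 3.02) and Hist1h2br (3.02 against 2.66 to 2.70). WT 1 was low for Ass1 (6.20 against 6.39 to 6.43) and Copg2 (5.18 against 5.63 to 5.68). WT 2 was high for Vegfa (4.72 against 4.45 to 4.49). The calls of Dnmt1, Lef1, Nupr1 and Hist1h2br held without WT 4, those of Ass1 and Copg2 without WT 1, and that of Vegfa without WT 2.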

How the results depend on the processing

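Of the 111 named genes with a call, none changed direction under any of the 21 alternatives that fitted it (99 of them were fitted with the stricter filter). These genes were picked for separate groups or for their call, so a kept direction was largely set by that choice. All 111 kept the call without WT 4, 105 without WT 1, 95 without WT 2, 78 without WT 3, 70 without Dnmt1 KO 1 and 44 without Dnmt1 KO 2. The call was kept by 103 with an estimated within-number correlation, 97 in letter A and 98 in letter B libraries. The genes lost with the estimated correlation were Exd1, Hfm1, Slc25a31, Msx2, Zfp809, Tmem173, Cxcl10 and Vldlr. Leaving out each number in turn gave 170 to 2835 changed genes, 138 to 1620 rising, 32 to 1215 falling and 168 to 876 changed at least 2-fold. With 1 Dnmt1 KO value left, it is assumed to vary like the WT values.

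With all 12 libraries as replicates 4659 genes changed (2613 up, 2046 down). WT 1 and 2 alone gave 2608 (1056 down), and WT 3 and 4 alone 2607 (1613 up, 994 down). Requiring a 2-fold change left 754. Without a filter 1599 rose and 1509 changed 2-fold, with a pseudocount of 1 RPM 377 changed 2-fold, and with quantile normalization 1028 fell. The same-numbered samples did not pair (correlation -0.013 of the differences between numbers 1 and 2), and a replicate block gave 3110 changed genes (1780 up, 1330 down) on averaged values and 6374 (3537 up, 2837 down) on 12 libraries.

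The change of Pou5f1, -0.01, became 0.057 in letter A libraries, 0.24 in both block fits and with WT 1 and 2 alone, 0.065 after quantile normalization, 0.013 with voom, -0.10 without WT 1, 0.04 without WT 3, 0.10 without WT 4 and 0.06 without Dnmt1 KO 2. That of Tet1, 0.26, became -0.035 in both block fits and with WT 1 and 2 alone. The cause was not tested.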
